A study of Mus musculus with 42 samples.

Results

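The haemoglobin and red cell genes Hba-a1, Hbb-b1, Hbb-b2, Alas2 and Slc4a1 were followed in the aorta and the skeletal muscle of diabetic and healthy mice. Their probes were taken by the gene name that the array files give each probe. This rule found 4 of the 5 genes, among 21186 gene names on the array, with 7 probes of 41174: 1 for Hba-a1, 4 for Hbb-b1, 1 for Alas2 and 1 for Slc4a1, while 0 probes carried the name Hbb-b2. Matching probes by name used no measured value, but the genes themselves were chosen with earlier results of these data known. All 7 probes stood well above background on all 42 arrays, none was saturated, and every one of them was tested in each comparison.

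RNA of 7 groups of mice and 2 tissues was hybridised to one-colour Agilent arrays, with 3 arrays for each group and tissue. The healthy group (G) was C57 mice, and the other 6 groups were KK/Ay mice, a strain that becomes obese and diabetic without treatment and carries the yellow allele of agouti. The diabetic group (A) had no further induction, while the macroangiopathy group (C) received L-NAME, which blocks nitric oxide synthase, in drinking water together with a diet high in fat for 8 weeks. The SHENQI (B), yangyinyiqi (D), huoxue (E) and rosiglitazone (F) groups had the same induction as group C and then received the named herbal formula or, in group F, rosiglitazone, an agonist of PPAR gamma, by gavage for 8 weeks. Groups G, A and C received saline by gavage. All mice were male, with an age of 18 to 20 weeks. Whether that was their age before the induction and gavage or when tissue was collected is not clear. Diabetes and strain go together in every comparison with group G, since no C57 mouse was diabetic. Among the labelled conditions, only the induction separates group C from group A.

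Values are log2 signal after background correction and quantile normalization over the 42 arrays, and a difference of 1 on this scale is a 2-fold difference. The arrays had between 20214 and 30296 probes well above background. The agouti gene a fitted the strain labels, at 8.88 to 10.22 in KK/Ay and 6.83 to 6.89 in C57 arrays. The skeletal muscle actin Acta1 was higher in muscle, at 17.35 to 17.76, than in aorta, at 10.68 to 16.96. Some aorta arrays thus held much skeletal muscle signal. Over the aortas, the summed signal of 9 skeletal muscle genes ran from 4770 to 941100, against 1494000 to 1872000 in muscle. The diabetic aortas reached 941100 and the rosiglitazone aortas 536600. The part of this in the red cell values was not tested. The lowest aortic values of Myh11, the smooth muscle myosin, were in group G, which ranged from 9.24 to 13.99 against 12.70 to 15.49 in KK/Ay aorta, and S100a9, a neutrophil gene, reached 17.70 on 1 healthy aorta array. Arrays were hybridised on 11 slides. The difference between the last and first Hbb-b1 probe, given below, was larger on slides 3 and 11 than on the other muscle slides. In aorta slide 1 overlapped the other slides in this difference. Slides 1, 3 and 11 held 2 of the 3 healthy arrays of each tissue, so results are also given without them and within slides.

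Haemoglobin is a tetramer of alpha-globin and beta-globin chains, each holding 1 haem group, and it carries oxygen in red cells. Hba-a1 encodes the adult alpha chain and Hbb-b1 an adult beta chain, and Alas2 is the erythroid enzyme of the first and rate-limiting step of haem synthesis. Slc4a1 encodes band 3, the chloride and bicarbonate exchanger of the red cell membrane, which also anchors the membrane to the cytoskeleton. Mature mouse red cells have no nucleus, and young red cells, the reticulocytes, still hold globin messenger RNA. A tissue collected with blood in its vessels therefore carries red cell RNA. In whole tissue, fewer red cells and less RNA per red cell cannot be told apart. Mouse strains carry different haplotypes at the beta-globin locus: C57BL/6 mice carry the single haplotype, with the genes now named Hbb-bs and Hbb-bt, while other strains carry the diffuse haplotype, with Hbb-b1 and Hbb-b2. Which haplotype the KK/Ay mice carried is not given in the sources used here.

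The probes are shown because their sequences decide which globin genes each can read. The Hba-a1 probe (A_52_P278538) lay at base 103 of the transcript, on chr11:32183775-32183956 of mm9, plus strand, across an intron, and the files list it for Hba-a1 and Hba-a2. The accession behind the name Hbb-b1 is Hbb-bt in current RefSeq naming. Its 4 probes, on the minus strand of mm9 chromosome 7, began at transcript bases 61 (A_51_P374468, chr7:110962317-110962376), 231 (A_52_P260346, chr7:110962031-110962090), 262 (A_51_P374476, chr7:110962000-110962059) and 496 (A_52_P213909, chr7:110961112-110961171). The files list the base 61 probe for Hbb-bt, Hbb-bs and Hbb-b2, the base 231 and base 262 probes for Hbb-bt and Hbb-bs, and the base 496 probe for Hbb-bt and Hbb-b2. The values therefore cannot be split between the beta-globin genes. The base 231 and base 262 probes share 29 bases, given in capitals, and are not independent readings.
Hba-a1, base 103: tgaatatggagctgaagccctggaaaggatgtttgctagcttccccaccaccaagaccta
Hbb-b1, base 61: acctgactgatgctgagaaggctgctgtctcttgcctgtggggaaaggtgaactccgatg
Hbb-b1, base 231: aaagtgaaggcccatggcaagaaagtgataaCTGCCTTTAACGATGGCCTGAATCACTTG
Hbb-b1, base 262: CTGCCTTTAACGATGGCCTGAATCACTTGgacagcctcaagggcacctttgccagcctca
The Alas2 probe (A_51_P327451) lay at base 1806 of its transcript, on chrX:147004993-147005052 of mm9, plus strand. The Slc4a1 probe (A_51_P196972) lay at base 4368, on chr11:102210256-102210315 of mm9, minus strand.

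All 7 probes were higher in aorta than in skeletal muscle. The contrast of the 7 aorta group means with the 7 muscle group means called 39.2% of the 29158 probes tested higher and 36.3% lower in aorta (limma, Benjamini-Hochberg adjusted p below 0.05). A call is thus common among all probes. Their sizes were above the median of 0.02 over all probes: the log2 fold change was 3.31 for Hba-a1 (SE 0.14), 3.13, 2.77, 2.58 and 2.80 for the Hbb-b1 probes from base 61 to base 496, and 3.25 for Alas2. Slc4a1 differed by 0.86 (SE 0.10, adjusted p = 7.12e-09). In a limma fit with slide as a fixed block, none of the 7 was called (3 at unadjusted p below 0.05) and Slc4a1 read -0.26. Only slide 4 held both tissues, with 1 muscle and 2 aorta arrays, and that fit rests on them.

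Hba-a1 read 14.73, 16.09 and 16.78 on the healthy aorta arrays, 17.51, 16.67 and 17.70 in the diabetic group and 17.70, 17.35 and 17.51 in the macroangiopathy group. The treated aortas read 16.77, 17.95 and 17.16 with SHENQI, 17.95, 17.27 and 17.35 with yangyinyiqi, 17.22, 16.50 and 17.01 with huoxue and 17.24, 16.77 and 18.11 with rosiglitazone. The healthy group was lowest and spread most, and its first array lay below all other aortas. In muscle the 3 healthy arrays read 14.16, 14.24 and 14.16, while the diabetic group read 13.55, 13.31 and 13.09. The other muscle groups lay between 13.38 and 14.34. In muscle the healthy arrays were thus near the top of the range, and the diabetic arrays lay below all of them.

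Alas2 was also lowest in healthy aorta. Healthy aorta read 11.34, 11.94 and 12.59, diabetic aorta 14.96, 13.01 and 13.07, and macroangiopathy aorta 13.95, 13.92 and 14.16. SHENQI aorta read 13.33, 13.55 and 13.55, yangyinyiqi aorta 14.68, 13.28 and 13.94, huoxue aorta 12.79, 12.15 and 12.70, and rosiglitazone aorta 12.85, 12.48 and 14.33. The diabetic and macroangiopathy arrays all lay above the healthy ones, while the huoxue and rosiglitazone groups each had an array inside the healthy range. Healthy muscle read 11.02, 10.45 and 10.49, diabetic muscle 9.79, 9.37 and 9.21, and macroangiopathy muscle 9.86, 10.11 and 9.66. Both of these KK/Ay groups lay below the healthy muscle arrays.

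The Hbb-b1 probe at base 61 read 14.11, 15.47 and 15.14 in healthy aorta, 17.03, 16.05 and 16.54 in diabetic aorta and 17.19, 16.98 and 17.31 in macroangiopathy aorta. All 18 KK/Ay aortas, from 15.52 to 17.54, lay above the 3 healthy ones. The base 231 probe gave the same separation, with healthy aortas at 14.57, 15.83 and 15.44 and KK/Ay aortas from 15.86 to 17.27. On these 2 of the 7 probes the strains did not overlap in aorta, against 1.79% of all probes tested with every KK/Ay array above every healthy one. The base 496 probe read 15.18, 15.79 and 17.19 in healthy and 16.45 to 18.11 in KK/Ay aorta, and the groups overlapped. The base 262 probe read 16.77, 17.01 and 17.67 in healthy and 17.07 to 18.53 in KK/Ay aorta. On 8 aorta arrays, where it was the third brightest probe, it read the same 18.40. Quantile normalization gives probes of equal rank on different arrays nearly the same value, so differences among these arrays cannot be read from this probe.

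In muscle the Hbb-b1 probes ran the other way between the healthy and diabetic groups. The base 262 probe read 16.61, 15.64 and 15.82 in healthy and 15.09, 14.72 and 14.54 in diabetic muscle, without overlap. The base 231 probe read 14.68, 13.88 and 14.51 in healthy and 13.73, 13.36 and 13.26 in diabetic muscle, also without overlap. The base 61 probe, at 14.03, 13.02 and 13.78 in healthy and 13.16, 12.71 and 12.81 in diabetic muscle, overlapped. Slc4a1 was the dimmest of the 7 probes and had the smallest SD over the arrays of each tissue. That SD was 0.17 in muscle, and in aorta 0.51 against 0.53 for the base 262 probe. Healthy aorta read 7.66, 7.88 and 8.45, KK/Ay aorta 7.74 to 9.47, healthy muscle 7.75, 7.85 and 7.51, and KK/Ay muscle 7.41 to 8.01.

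The order of the group means was alike on the 7 probes at its low end. In aorta the healthy group was lowest on all 7 and the huoxue group next to it, and in muscle the diabetic group was lowest on all 7. Hba-a1 in aorta ran from 17.53 ± 0.37 (SD, n = 3 here and below) with yangyinyiqi through 17.52 ± 0.18 in the macroangiopathy, 17.37 ± 0.68 in the rosiglitazone, 17.29 ± 0.55 in the diabetic, 17.29 ± 0.60 in the SHENQI and 16.91 ± 0.37 in the huoxue group to 15.87 ± 1.04 in the healthy group. Every pair of neighbours in this order overlapped. Alas2 in aorta ran from 14.01 ± 0.13 in the macroangiopathy group to 12.55 ± 0.35 with huoxue and 11.95 ± 0.63 in the healthy group, and its neighbours overlapped too. Over the 7 probes in aorta, the neighbours without overlap were the huoxue and healthy groups, at base 61 (16.20 ± 0.50 against 14.91 ± 0.71) and base 231 (16.56 ± 0.32 against 15.28 ± 0.64). In muscle, Hba-a1 was highest in the healthy group (14.19 ± 0.05) and lowest in the diabetic group (13.32 ± 0.23), and Alas2 likewise (10.65 ± 0.32 and 9.46 ± 0.30), with overlap between all neighbours in the order.

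**Figure D1:**
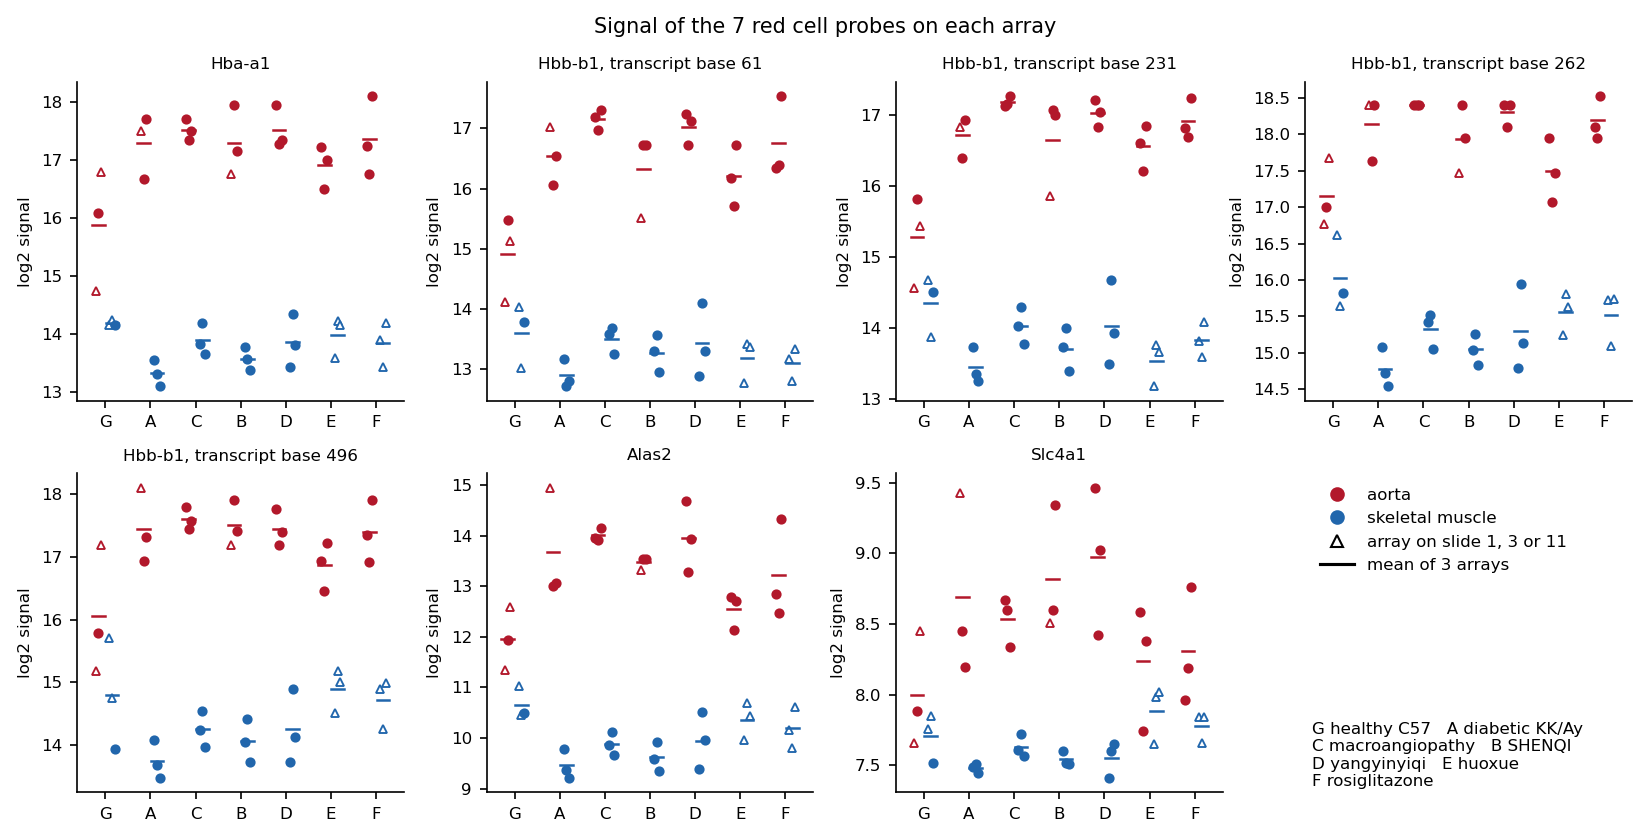
Log2 signal (y axis) of the 7 probes on each array of groups G, A, C, B, D, E and F (x axis), red for aorta and blue for skeletal muscle, with a line for the mean of 3 arrays and triangles for arrays on slide 1, 3 or 11. The group means in aorta lie above those in muscle, and Hba-a1 in healthy aorta, at 14.73 to 16.78, has the lowest mean of the aorta groups.

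In aorta, all 7 probes were higher in the 18 KK/Ay arrays than in the 3 healthy arrays, and 12.7% of all probes tested were called higher. The contrast asks whether the red cell genes differ with strain and diabetes together. Hba-a1 rose by a log2 fold change of 1.45 (SE 0.29, adjusted p = 4.16e-04), Alas2 by 1.53 (adjusted p = 9.67e-04) and Slc4a1 by 0.60 (adjusted p = 0.0305). The Hbb-b1 probes rose by 1.76 at base 61, 1.57 at base 231, 0.93 at base 262 and 1.33 at base 496, with adjusted p from 1.33e-05 to 0.00295. The median over the 7 probes was 1.45 against 0.00 over all probes tested. Without the first healthy aorta array, 4 of the 7 stayed called: the median fell to 0.89, and the base 262, base 496 and Slc4a1 probes missed the threshold. Slc4a1 was also not called without the second healthy aorta array (0.54, adjusted p = 0.0933).

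The higher aortic signal was also seen within slides, where arrays were hybridised together. On slide 1, the mean of 2 KK/Ay arrays (groups A and B) exceeded that of 2 healthy arrays by 0.72 to 2.18 over the 7 probes, with a median of 1.38, and single arrays overlapped on some probes: Hba-a1 read 16.77 on the SHENQI and 16.78 on a healthy array. On slide 2, the mean of 2 SHENQI arrays exceeded 1 healthy array by 1.09 to 1.87, with a median of 1.25. Without slides 1, 3 and 11 the 7 differences remained above 0, from 0.67 to 1.56, with 1 healthy aorta array left.

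In skeletal muscle the same contrast had the opposite sign for each of the 7 probes. The Hbb-b1 probe at base 262 was lower by a log2 fold change of -0.77 (adjusted p = 0.0189), and 5.63% of all probes were called lower. In a fit of the muscle arrays alone 3 were called lower: Alas2 (adjusted p = 0.0135), base 262 (adjusted p = 0.0142) and base 231 (adjusted p = 0.0414). The share of all probes called lower in that fit was not taken, so these calls have no background to be read against. In the fit over both tissues the other 6 were not called: Hba-a1 gave -0.44 (95% interval -1.03 to 0.14), Alas2 -0.74 (adjusted p = 0.137), the base 231 probe -0.59 (adjusted p = 0.0911), the base 61 probe -0.38, the base 496 probe -0.47 and Slc4a1 -0.06. The median was -0.47 against 0.02 over all probes. On slide 3, 2 rosiglitazone arrays differed from 2 healthy muscle arrays by -0.71 to -0.05 over the 7 probes. Without slides 1, 3 and 11, 5 of the 7 values were below 0. That left 1 healthy muscle array and no huoxue or rosiglitazone muscle array. The single call of the fit over both tissues was lost without the first healthy muscle array.

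The tissue difference in the strain contrast was tested itself. The KK/Ay effect was more positive in aorta than in muscle for 6 of the 7 probes, against 3.54% of all probes called in that direction. The interaction was 1.89 for Hba-a1 (SE 0.41, adjusted p = 0.00302), 2.27 for Alas2 (SE 0.47, adjusted p = 0.0019), and 2.14, 2.16, 1.70 and 1.80 for the Hbb-b1 probes from base 61 to base 496. Slc4a1 gave 0.66 (adjusted p = 0.147). Without slides 1, 3 and 11 the 7 interactions remained above 0, from 0.64 to 2.21. That left 1 healthy array in each tissue and no huoxue or rosiglitazone muscle array. The 2 tissues then held different sets of KK/Ay groups. Averaged over both tissues, where the 2 signs partly cancel, the contrast called the base 61 (0.69, adjusted p = 0.00993) and base 231 (0.49, adjusted p = 0.0269) probes higher, against 16.4% of all probes.

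**Figure D2:**
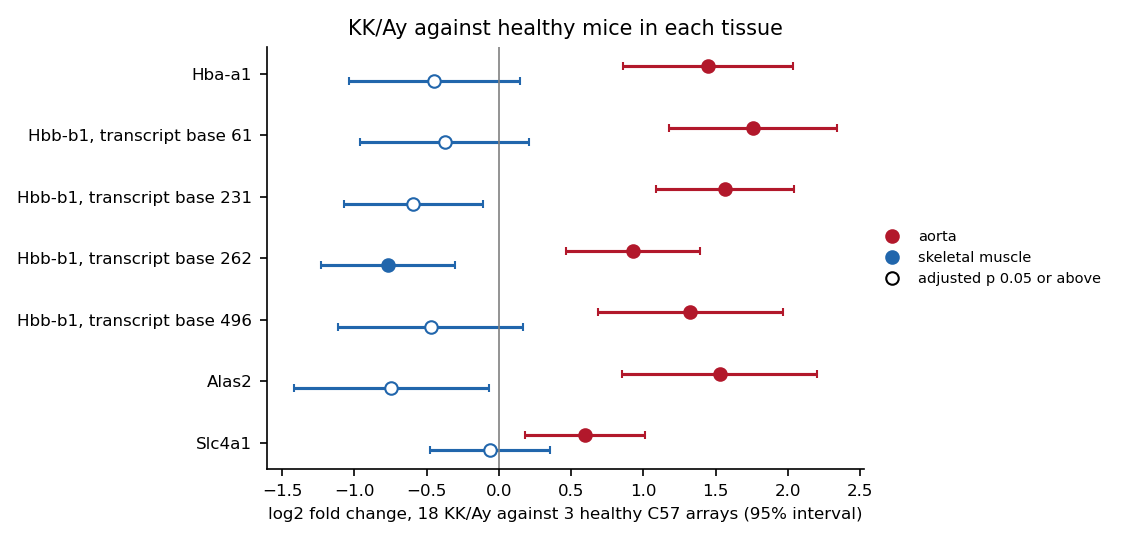
Log2 fold change (x axis) of 18 KK/Ay against 3 healthy C57 arrays for each probe (y axis) in aorta (red) and skeletal muscle (blue), with 95% intervals and open circles where adjusted p was 0.05 or above. The aortic values lie between 0.60 and 1.76 and the muscle values between -0.77 and -0.06.

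Markers of other cells moved with the aortic difference. The smooth muscle list, fixed with earlier results of these data known, had 12 of 15 probes called higher in KK/Ay aorta and 0 lower, with a median of 1.77 (12.7% of all probes were called in each direction), led by Myh11 (2.64), Cnn1 (2.32), Acta2 (2.30) and Tagln (2.21), genes of the contractile apparatus. Its summed signal ran from 32500 to 392400 over the healthy aortas and from 164200 to 780900 over the KK/Ay aortas. The neutrophil and marrow list had 5 of 11 probes lower and 0 higher, with a median of -1.54, led by Chi3l3 (-2.87), Ctsg (-2.22), Lcn2 (-1.54) and Ngp (-1.52), which are granule or secreted proteins of myeloid cells, and its summed signal was 4296 to 376900 in healthy and 3882 to 84340 in KK/Ay aorta. The lymphocyte list had 0 of 13 probes called in limma (1 lower at unadjusted p below 0.05) and a median of -0.72. The endothelial list had 2 of 11 probes higher, both of Vwf, von Willebrand factor (1.54 and 1.38), and 0 lower, with a median of 0.10 and a summed signal of 8873 to 29400 in healthy and 15810 to 58470 in KK/Ay aorta. The part of these lists in the red cell result was not tested. In muscle the smooth muscle list had 0 of 15 probes called (1 higher at unadjusted p below 0.05) and a median of -0.03.

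Platelets also travel with blood. None of the 11 platelet probes was called in limma in KK/Ay aorta (3 higher at unadjusted p below 0.05), and their median was -0.03. In muscle none was called at either threshold. Between tissues, 11 of 11 platelet probes were higher in aorta, as were 39.2% of all probes, among them Ppbp (2.75), Clec1b (2.11), Gp9 (1.38) and Treml1 (1.02), which encode a platelet chemokine, platelet surface receptors and a subunit of the von Willebrand factor receptor.

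The list of other globin genes held 7 probes, of which 5 passed the filter on dim probes, and 3 were called higher in KK/Ay aorta: Hba-a2, the second adult alpha gene, by 1.38 (adjusted p = 3.07e-04), and the theta-like genes Hbq1a by 0.43 and Hbq1b by 0.27. Hba-a2 read 14.84 to 16.80 in healthy and 16.36 to 17.76 in KK/Ay aorta. It also had a higher KK/Ay effect in aorta than in muscle (1.74, adjusted p = 0.00322). Its probe is not an independent reading of Hba-a1, since the Hba-a1 probe is listed for both genes.

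The genes of haem synthesis other than Alas2 were lower in KK/Ay aorta where they were called. Of 21 probes of the haem synthesis list in aorta, 0 were higher and 4 lower in KK/Ay, among them Ppox (-0.62) and Urod (-0.55), enzymes of the later steps, and Slc25a37 (-0.59), the mitochondrial iron importer mitoferrin. In muscle, where 9.43% of all probes were called higher, 3 were higher, among them Fech (0.48) and Urod (0.42), and 2 lower, Slc25a37 (-0.51) and Abcg2 (-0.47). Fech, which inserts iron into the porphyrin ring, was also lower in aorta than in muscle (-1.25), opposite to Alas2. Across tissues 13 of the 21 were lower in aorta and 2 higher, against 36.3% and 39.2% of all probes. These enzymes other than Alas2 are active in all cells that make haem.

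Other red cell lists stayed near the median of all probes. In KK/Ay aorta the red cell membrane list had 4 of 33 probes higher and 1 lower (median 0.05), the higher ones being Aqp1, the water channel (1.50), 2 probes of Cd47 (0.95 and 0.47) and Cd59a (0.53). The red cell cytosol list had 7 of 32 higher and 3 lower (median 0.13), with Cat (-0.89), Isg20 (-0.78) and Ube2o (-0.72) lower. The list of erythroid regulators had 2 of 27 higher, Lmo2 (0.45) and Add1 (0.37), and 0 lower (median 0.00). Haemoglobin and iron handling had 1 of 23 higher, Lrp1, the receptor for haem bound to haemopexin (1.41), and 5 lower, among them Hp (-1.57) and Hpx (-1.20), the plasma carriers of haemoglobin and haem, and Ftl1 (-0.69), ferritin light chain. In muscle, Cd163, the macrophage receptor for haemoglobin bound to haptoglobin, was lower in KK/Ay (-1.47, adjusted p = 6.51e-05).

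Several genes of red cell precursors were close to background, while others were measured. Klf1, an erythroid transcription factor, read 6.86 to 7.23 over all arrays, and Rhag and Ermap read 6.71 to 7.24. Epor, the erythropoietin receptor, was well above background on all 42 arrays, at 7.39 to 8.79. Gata1, an erythroid transcription factor, read 6.93 to 7.04 in aorta, 6.91 to 8.20 in KK/Ay muscle and 6.93 to 7.00 in healthy muscle. It was called higher in KK/Ay muscle in limma (0.45, adjusted p = 0.000597), but not all KK/Ay groups shared this. In muscle it was called lower with huoxue (-0.87) and rosiglitazone (-0.96) than in the macroangiopathy group. The muscle arrays of these 2 treated groups were all on slides 3 and 11, and the part of the slides was not tested. Ahsp, the chaperone of free alpha-globin, was well above background on 18 of 18 KK/Ay aorta arrays, at 7.11 to 8.36, and on 2 of 3 healthy aorta arrays, at 6.93 to 7.18. In muscle Ahsp was well above background on 2 of 18 KK/Ay and 1 of 3 healthy arrays, at 6.82 to 7.07. It thus passed the filter on dim probes only through KK/Ay aorta, where it was high, and no test is read from it. Ank1, a membrane anchor of the red cell that skeletal muscle also expresses, was lower in aorta than in muscle, at -5.32 to -3.40 over 3 probes. Its other probes on the array were dim, at 6.71 to 7.36 over all arrays, and are not in this range.

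**Figure D3:**
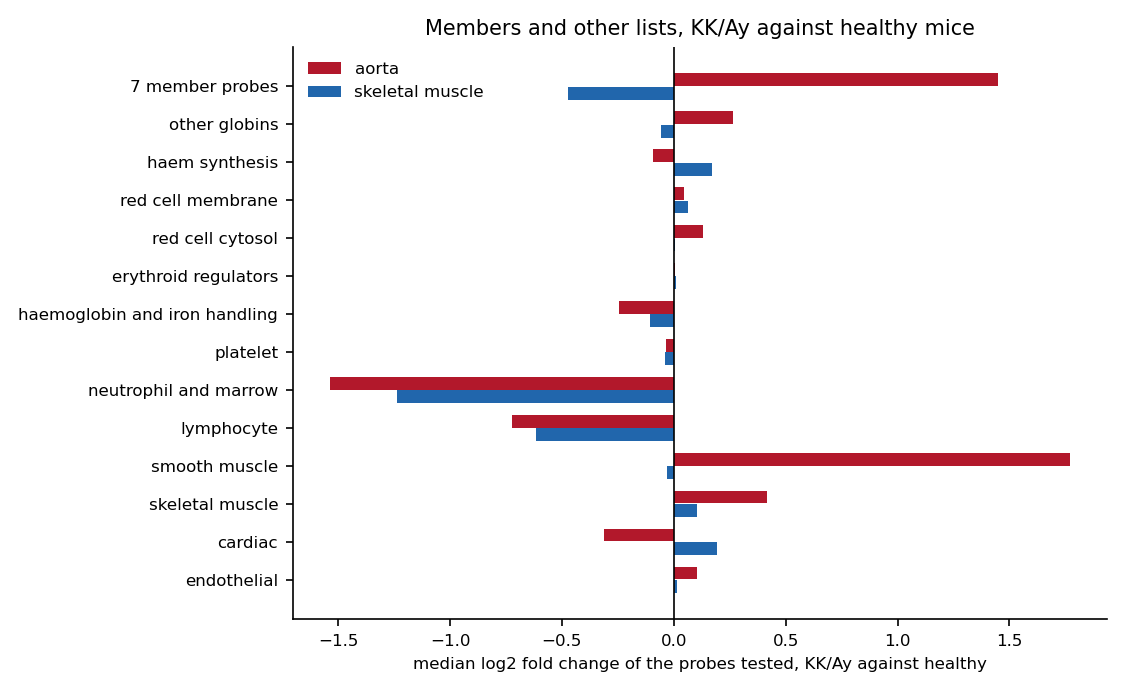
Median log2 fold change of KK/Ay against healthy arrays (x axis) over the tested probes of each list (y axis), red bars for aorta and blue bars for skeletal muscle. The member probes (1.45 in aorta, -0.47 in muscle) and the smooth muscle list (1.77 and -0.03) lie above 1 in aorta, and the red cell membrane, cytosol and regulator lists lie between 0.00 and 0.13 in both tissues.

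Comparisons with the healthy group were also made group by group. Both share the 3 healthy arrays of each tissue, so their values are given side by side. In diabetic against healthy aorta, the base 231 probe of Hbb-b1 was called (1.44, adjusted p = 0.0486), against 1.18% of all probes called higher, and all 7 reached an unadjusted p below 0.05, against 9.08%. Leaving out 1 array at a time gave 0 to 2 calls, and 11 of the 12 omissions, all but that of the second healthy muscle array, changed the count. Their log2 fold changes ran from 0.70 to 1.73. On 3 of the 7 probes, those at base 61 and 231 and Alas2, the diabetic arrays lay above all healthy ones, against 9.17% of all probes. In macroangiopathy against healthy aorta, 5 were called higher against 4.23% of all probes: Hba-a1 (1.65, adjusted p = 0.0413), the base 61 (2.25, adjusted p = 0.00785), base 231 (1.91) and base 262 (1.25, adjusted p = 0.0301) probes, and Alas2 (2.06, adjusted p = 0.00499). With the replicate number or the slide as a block 3 were called. In fits of the aorta arrays alone neither comparison called a member, with 5 at unadjusted p below 0.05 in the diabetic and 6 in the macroangiopathy group.

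In muscle neither comparison called a probe in the limma fit over both tissues, with 3 lower at unadjusted p below 0.05 in the diabetic group (4.92% of all probes) and 2 in the macroangiopathy group (5.04%). In a fit of the muscle arrays alone, Hba-a1 (-0.87, adjusted p = 0.025) and Alas2 (-1.20, adjusted p = 0.0394) were called lower in the diabetic group. For that fit the share of all probes called was not taken. Diabetic minus healthy muscle was -1.24 to -0.23 over the 7 probes, and on 5 probes the diabetic arrays lay below all healthy ones, against 13.6% of all probes. The interaction with tissue was called for 0 of 7 in the diabetic group, where 6 reached an unadjusted p below 0.05 with a higher aortic effect (3.66% of all probes), and for Alas2 in the macroangiopathy group (2.83, SE 0.40, adjusted p = 0.0336), against 0.0851% of all probes. With all 42 arrays in 1 fit, 6 of the 7 were called in each group, but the share of all probes called there was not taken. With the replicate number as a block none was called in the macroangiopathy group (6 at unadjusted p below 0.05). Averaged over tissues, limma called none of the 7 in either comparison, with 0 at unadjusted p below 0.05 in the diabetic group and 1, the base 61 probe, higher in the macroangiopathy group (14.2% of all probes).

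The macroangiopathy group was set against the diabetic group to ask what the diet and L-NAME added. None of the 7 was called in limma, and none of the 28141 probes was. At an unadjusted p below 0.05, 4 were higher in the macroangiopathy group over both tissues, against 2.99% of all probes: Hba-a1 (0.40), and the base 61 (0.61), base 231 (0.53) and base 262 (0.40) probes of Hbb-b1. Alas2 and Slc4a1 were not among them. The 2 groups shared no slide in either tissue, so slide and induction cannot be told apart in these values. In the limma fit with slide as a fixed block, 0 of the 7 reached an unadjusted p below 0.05.

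Each treatment was set against the macroangiopathy group, whose 6 arrays the 4 comparisons share, and averaged over tissues none of the 7 probes was called in limma in any of them. With SHENQI the log2 fold changes ran from -0.54 to 0.10, and 3 were lower at unadjusted p below 0.05: Alas2 (-0.40, 95% interval -0.65 to -0.15) and the base 61 (-0.54) and base 262 (-0.37) probes, against 1.08% of all probes. In limma with slide as a fixed block, or with all 42 arrays in 1 fit, 0 of the 7 SHENQI values reached that p. The SHENQI aortas were on slides 1 and 2 and the macroangiopathy aortas on slide 6. With yangyinyiqi the log2 fold changes ran from -0.10 to 0.18 and 0 reached an unadjusted p below 0.05. The interval for Hba-a1 there was -0.39 to 0.36, and that for Alas2 -0.50 to 0.52. With rosiglitazone they ran from -0.40 to 0.12 and 0 reached that p, and the Alas2 interval was -0.94 to 0.46. With huoxue they ran from -0.64 to -0.02, and 2 were lower at unadjusted p below 0.05, against 7.9% of all probes.

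In aorta the huoxue group had values below 0 on all 7 probes, and on the 6 other than Slc4a1 they were the largest in size of the 4 treatments. Against macroangiopathy aorta, Alas2 was lower by -1.46 (adjusted p = 0.215 in limma), the base 61 probe gave -0.96, base 262 -0.90, base 496 -0.74, base 231 -0.63, Hba-a1 -0.61 and Slc4a1 -0.30. None was called after adjustment, and 6 had an unadjusted p below 0.05, against 2.94% of all probes. The huoxue arrays lay below all macroangiopathy arrays on 6 probes, against 3.72% of all probes. The huoxue aortas were on slides 9 and 10 and the macroangiopathy aortas on slide 6. In the same contrast the smooth muscle list had a median of -0.50 with 0 of 15 called (2 lower unadjusted), and the neutrophil and marrow list 0.74 with 0 of 10 called (1 higher unadjusted). The part of these lists was not tested.

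In huoxue muscle the members had values of both signs, from -0.50 at base 231 to 0.65 at base 496. The interaction with tissue was called for Alas2 (-1.95, SE 0.30, adjusted p = 0.00607) and the base 496 probe (-1.38, adjusted p = 0.036), against 2.14% of all probes. With all 42 arrays and 14 group means in 1 fit, none of the 7 was called in limma for this interaction (3 at unadjusted p below 0.05). All 3 huoxue muscle arrays were on slide 11 and the macroangiopathy muscle arrays on slides 7 and 8. These groups thus shared no slide in either tissue, and no difference within a slide can be given for them.

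The distance between the first and last Hbb-b1 probe was examined because the files list these probes for different beta-globin genes. In each array the value at base 61 was subtracted from that at base 496. In muscle the difference was 1.47 to 1.77 on the 6 KK/Ay arrays of slides 3 and 11 and 1.68 to 1.72 on 2 C57 arrays, both on slide 3. On the other slides it was 0.66 to 0.97 on 12 KK/Ay arrays and 0.15 on 1 C57 array. In aorta it was 1.08 to 1.67 on 2 KK/Ay and 1.07 to 2.05 on 2 C57 arrays of slide 1, and 0.26 to 1.19 on 16 KK/Ay arrays and 0.32 on 1 C57 array elsewhere. The difference was larger on slide 3 in both strains in muscle, on slide 11, which held KK/Ay muscle alone, and on slide 1 in the healthy aortas, while the KK/Ay aortas of slide 1 overlapped those of other slides. The median difference between late and early probes of 2789 other genes was 0.75 to 0.86 on slide 1 and 0.82 to 1.07 on the other slides in aorta, and 0.84 to 0.92 and 0.81 to 0.95 in muscle.

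**Figure D4:**
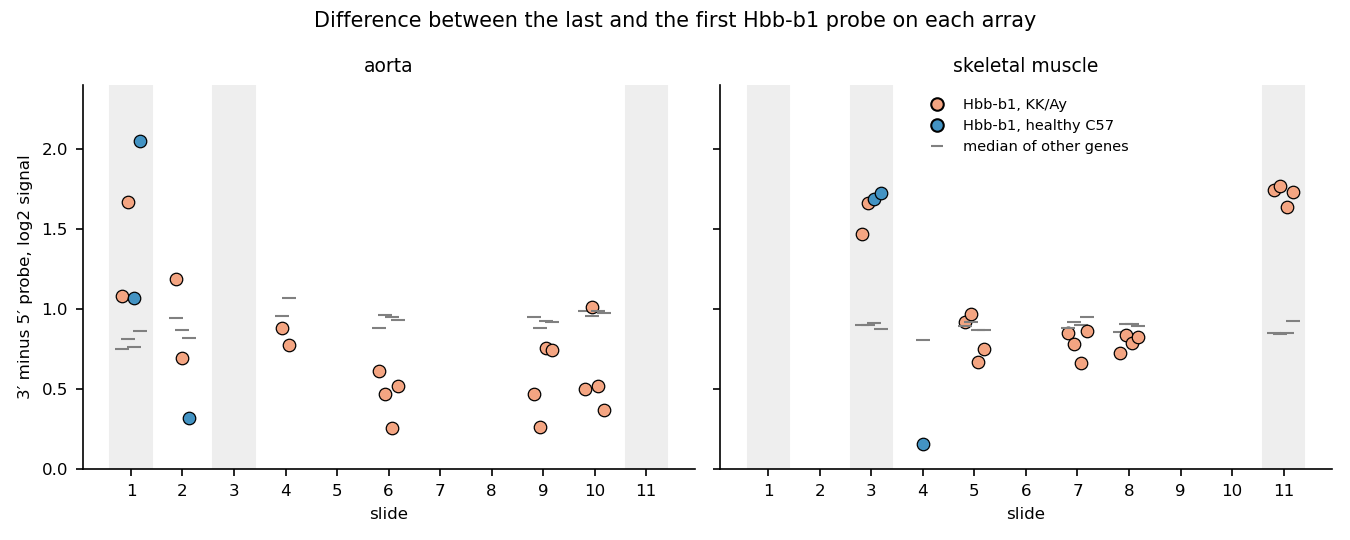
Log2 signal of the Hbb-b1 probe at base 496 minus that at base 61 (y axis) on each array by slide (x axis), in aorta and skeletal muscle, with orange points for KK/Ay, blue points for healthy C57, grey dashes for the median of other genes and shading for slides 1, 3 and 11. In muscle the points on slides 3 and 11 lie between 1.47 and 1.77 in both strains, and those on the other slides between 0.15 and 0.97.

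All 21 pairs of member probes were compared within arrays in each tissue, to see whether strain moved 1 member more than another. Each of the 42 tests was an exact two-sided permutation test over the 1330 ways to choose 3 of 21 arrays. None passed after Benjamini-Hochberg adjustment (lowest adjusted p = 0.0505), and 15 had an unadjusted p below 0.05. The test takes no account of slide. The base 61 probe of Hbb-b1 minus Slc4a1 was higher by 1.16 in KK/Ay aorta (exact p = 0.00226), but by 0.74 on slide 1 and 0.58 on the other slides. The base 61 minus the base 262 probe was higher by 0.83 (exact p = 0.00602), with 0.93 on slide 1 and 0.16 on the others. The base 262 probe read the same 18.40 on several KK/Ay and no healthy aorta arrays, where its differences cannot be read. In aorta this pair therefore cannot show whether strain moved 1 probe more than the other. Alas2 minus Slc4a1 was higher by 0.93 in KK/Ay aorta (exact p = 0.00376), with 1.27 on slide 1 and 0.80 on the others. In muscle it differed by -0.68 (exact p = 0.00451), with -0.49 on slides 3 and 11 and -0.80 on the others.

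Across the 21 aorta arrays, the member probes ranked the arrays in a like order. The Spearman correlation of Hba-a1 was 0.988 with Hba-a2, 0.953 and 0.894 with the base 262 and base 496 probes of Hbb-b1, 0.838 with Alas2 and 0.639 with Slc4a1, the last of these 67th of 25037 probes. The median over all probes was 0.02. These are descriptions: the arrays share groups and slides, and the healthy arrays lie at 1 end. Besides Hba-a2, the genes nearest to Hba-a1 were Hbq1a (0.877), Gm5226 (0.869), Spna1 (0.828), which encodes the red cell alpha-spectrin, Fibp (0.802), Dus1l (0.776), 2810453I06Rik (0.767) and Sfrp2 (0.759). The genes nearest to Alas2 in aorta were 2810453I06Rik (0.903), Bpgm (0.89), the red cell enzyme that makes 2,3-bisphosphoglycerate, Spna1 (0.873), Hbq1a (0.868), Hba-a2 (0.86), Angptl7 (0.855), Helq (0.816) and Gm5226 (0.805).

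In muscle Hba-a1 had a correlation of 0.891 with Alas2 and 0.732 with Slc4a1 over 21 arrays. Among its nearest genes were Sap30 (0.858), Hba-a2 (0.843), Ms4a6c (0.782), Flt1 (0.782), Gm5226 (0.774), Abcc3 (0.743) and Ly6i (0.73). Alas2 had 0.969 with the base 262 probe of Hbb-b1 but 0.674 with that at base 61, which ranked 305th of 21558 probes. Among its nearest genes in muscle were Hba-a2 (0.9), Sap30 (0.857), Clk1 (0.832), Ly6i (0.827), 2610029G23Rik (0.827), Ms4a6c (0.818) and Ly6c2 (0.814). Hba-a2 and Gm5226 were near Hba-a1 in both tissues.

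**Figure D5:**
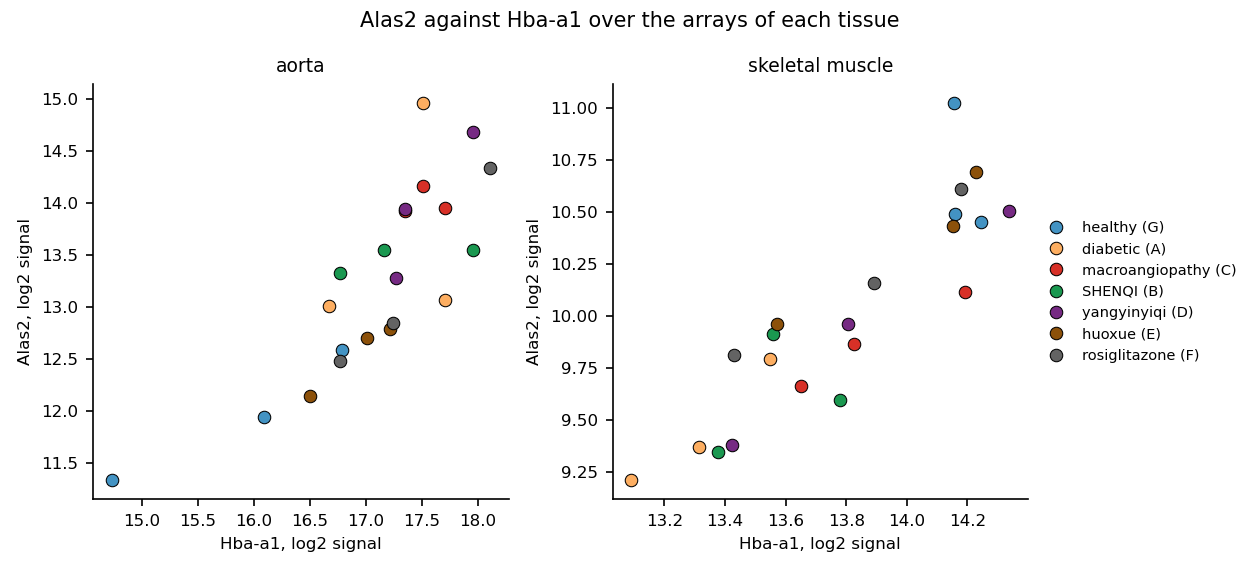
Log2 signal of Alas2 (y axis) against that of Hba-a1 (x axis) on the 21 arrays of each tissue, coloured by group. In aorta the healthy arrays lie at the low end, with Alas2 at 11.34 to 12.59, and in muscle at the high end, with Alas2 at 10.45 to 11.02.

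The promoters are shown because Hba-a1, Hbb-b1, Alas2 and Slc4a1 were all called higher in KK/Ay aorta. The set of promoters searched held none for Slc4a1, so that gene is left out here. The 150 bases before the RefSeq start (GRCm38.p6) were searched on both strands for TATAA, for CCAAT and for CACCC, the elements described in globin promoters, and for AGATAA and TGATAA, forms of the site of the erythroid factor GATA1. Capitals mark matches on either strand. Of all 32851 promoters of that length, 14.2% held TATAA, 24.5% CCAAT, 37.4% CACCC, 5.65% AGATAA and 4.45% TGATAA.
Hba-a1, chr11:32283522-32283671, plus strand: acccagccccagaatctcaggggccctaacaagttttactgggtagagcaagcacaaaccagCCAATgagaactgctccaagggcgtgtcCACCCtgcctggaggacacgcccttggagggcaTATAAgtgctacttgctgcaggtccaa
Hbb-bt, chr7:103813924-103814073, minus strand: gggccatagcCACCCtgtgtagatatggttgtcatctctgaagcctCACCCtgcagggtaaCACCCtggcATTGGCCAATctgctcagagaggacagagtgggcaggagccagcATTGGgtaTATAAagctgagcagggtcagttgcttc
Hbb-bs, chr7:103827929-103828078, minus strand: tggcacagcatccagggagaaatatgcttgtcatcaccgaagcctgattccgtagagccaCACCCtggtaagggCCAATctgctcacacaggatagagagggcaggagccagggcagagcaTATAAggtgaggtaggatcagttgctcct
Alas2, chrX:150547267-150547416, plus strand: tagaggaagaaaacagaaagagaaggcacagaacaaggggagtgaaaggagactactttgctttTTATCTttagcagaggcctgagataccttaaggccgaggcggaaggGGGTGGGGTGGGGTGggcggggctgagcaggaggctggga
The Hba-a1 and Hbb-bs windows held 1 match each of TATAA, of CCAAT and of CACCC. Hbb-bt held 1, 3 and 3, and 1 of its CCAAT matches and the next on the other strand lie side by side. Alas2 held 3 matches of CACCC and 1 of AGATAA. The first base of TATAA lay 27 bases before the start in Hba-a1, 28 in Hbb-bt and 29 in Hbb-bs. TGATAA was in none of these windows.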

How the data were processed

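RNA of aorta and skeletal muscle was measured on 42 one-colour Agilent 4x44k arrays. The deposited scanner files hold, per the file headers, the intensity of each spot and its local background from Agilent Feature Extraction 10.7 with mm9 annotation, and 34 of the 42 files have a short column set without mean intensity, so the median intensity was used. The deposited table of log2 values, which the authors had corrected for background and quantile normalized in limma per their methods, served as an alternative. Background was corrected with normexp (offset 0) over all 45018 spots, the 1639 control spots were dropped, arrays were quantile normalized and logged to base 2, and spots of a probe were averaged. A probe was tested where it was well above background on each of the 3 arrays of a compared group in 1 of the tissues, with limma 3.58.1 in R 4.3.3, with 14 group means for tissue and strain and with group and tissue for pairs of groups. Adjusted p-values are Benjamini-Hochberg over all probes tested. Interactions used group by tissue terms. Scripts were tested on simulated data. The number of arrays limits the precision, and nothing says how the 3 arrays of a group and tissue relate beyond being from 3 mice.

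The members and the other gene lists were chosen with earlier results of these data known. All member probes are named. From other lists, up to 4 genes per comparison with the largest change among those called are named, besides defining markers, and for likeness the 8 nearest genes among probes well above background on at least 11 of 21 arrays. Some genes that these rules name are not reported here. Replicate numbers did not pair arrays: deviations of same-numbered arrays correlated between -0.53 and 0.62, over 0.1 in 20 of 105 pairs. Alternatives were the normalization, the filter, the slide, the replicate number and each array left out. The shares of all probes called belong to the main fits and were not taken for these alternatives or for fits of 1 tissue alone. Promoters are RefSeq sequences of GRCm38.p6 and were matched by symbol for Hba-a1, Hbb-bt, Hbb-bs and Alas2.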

Additional observations from a re-analysis of the deposited data

Results flagged for a closer look

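The difference between tissues in the KK/Ay effect passed its own test for 6 member probes: 1.89 for Hba-a1, 2.14, 2.16, 1.70 and 1.80 for the Hbb-b1 probes at bases 61, 231, 262 and 496, and 2.27 for Alas2 on the log2 scale. In the macroangiopathy group against the healthy group it passed for Alas2 (2.83). In the huoxue group against the macroangiopathy group it passed for the Hbb-b1 probe at base 496 (-1.38) and for Alas2 (-1.95), with the arrays of the groups on different slides in both tissues. These are the 9 calls among all tissue interactions tested for the 7 probes, and leaving out 1 array at a time gave 7 to 11 calls. By comparison it gave 5 to 6 for KK/Ay against healthy, 0 to 3 for macroangiopathy against healthy and 1 to 3 for huoxue against macroangiopathy.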

How the results depend on the processing

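Values of single probes were compared under settings other than leaving out 1 array, which include each tissue alone and the slides left out. Of these, 2565 stayed called in the same direction, or stayed uncalled with a shift below the spread within groups. Another 52 lost their call, 41 gained one, and 85 stayed uncalled with a larger shift. The sign reversed in 8 that were called before or after. Signs of values uncalled in both settings were not compared. The counts of called member probes changed as follows, and the cause was not tested unless a smaller number of genes or arrays gives it. Averaged genes instead of probes leave 4 genes: 4 were then called for aorta against muscle and for KK/Ay against healthy aorta, 3 for the KK/Ay interaction, 0 for KK/Ay against healthy in muscle and averaged, 0 for A against G in aorta, 3 for C against G in aorta, 1 for the E against C interaction and 5 for all tissue interactions together. With slide as a fixed block, 0 were called for aorta against muscle, 1 for KK/Ay against healthy and 5 for A against G. With slide as a random block it was 1 for KK/Ay against healthy, 3 for C against G in aorta and 0 for its interaction. With slides 1, 3 and 11 as a batch term, KK/Ay against healthy had 1 averaged and 2 in muscle, the A against G and C against G interactions 6 each, the E against C interaction 0 and all tissue interactions together 18. Leaving these slides out was a setting chosen after seeing the data, as were the fits within slides. It left 1 healthy array in each tissue and no huoxue or rosiglitazone muscle array, so its counts are not given. With all 42 arrays and 14 means, also chosen afterwards for the interactions, the A against G and C against G interactions had 6 each, C against G had 2 and the E against C interaction 0.

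A single call, that of A against G in aorta, was lost (0 called) with the deposited table, the trended and robust variance, no filter, offset 50, the processed signal and the replicate block. The C against G interaction had 0 with the deposited table, the processed signal and the replicate block, and the E against C interaction 1 with each of these. The processed signal gave 0 for KK/Ay against healthy in muscle. The replicate block gave 3 for C against G in aorta. The replicate numbers share only a number, and the block is given for that reason here.

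By tissue alone, aorta gave 6 calls for KK/Ay against healthy and 0 for A against G and C against G (5 and 6 at unadjusted p below 0.05 in limma), and muscle 3 for KK/Ay against healthy, 2 for A against G and 1 for E against C. Compared with the averages over tissues, the muscle values had the opposite sign for Alas2 (-1.20) and Hba-a1 (-0.87) in A against G, for the base 496 probe (0.65) in E against C, and in KK/Ay against healthy for Alas2 (-0.74) and the Hbb-b1 probes at base 61 (-0.38), 231 (-0.59) and 262 (-0.77). Slc4a1 reversed to -0.26 between tissues with slide as a fixed block.

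Leaving out 1 array at a time gave 7 to 7 calls for aorta against muscle, 0 to 4 for KK/Ay against healthy (changed by healthy aorta 1 and 3 and healthy muscle 2), 4 to 7 in aorta (healthy aorta 1), 0 to 2 in muscle (healthy muscle 1 and 2 and yangyinyiqi muscle 2) and 5 to 6 in the interaction. It gave 0 to 2 for A against G in aorta and 0 to 1 in the interaction (healthy aorta 1), 3 to 7 for C against G in aorta (each macroangiopathy aorta array and macroangiopathy muscle 1 and 2), 0 to 3 in its interaction (9 of 12 arrays) and 1 to 3 for the E against C interaction (7 of 12 arrays). F against C had 0 to 1 in aorta and in the interaction (rosiglitazone aorta 3). All tissue interactions together had 7 to 11. Within arrays, 0 to 7 pairs were called in this way (SHENQI aorta 1 and 3, diabetic aorta 1, healthy aorta 2, rosiglitazone muscle 2 and yangyinyiqi muscle 2), 7 with offset 50, 1 with the processed signal and 8 with quantiles within tissue. Of the 32 nearest genes, 18 were shared with Pearson correlation and 19 with the processed signal.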
